A study of Mus musculus with 4 samples.

Results

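Aromatase, the receptors for estrogens and the enzymes that make and break down steroids within the brain were examined as a set of 9 genes in the hippocampus after global cerebral ischemia (GCI). The set comprised Cyp19a1, Esr1, Esr2, Srd5a1, Cyp7b1, Hsd17b4, Star, Esrra and Tspo, found by their symbols among the 22609 gene symbols that each library lists. RNA-Seq was performed on 4 libraries, 2 of FLOX+GCI and 2 of FBN-ARO-KO+GCI, from female mice that were all ovariectomized 1 week before both common carotid arteries were occluded for 20 min and were killed after 24 h of reperfusion. FBN-ARO-KO mice lose Cyp19a1 by Cre/LoxP recombination under the CaMKIIα promoter, which is active in excitatory neurons of the forebrain, so aromatase of other cells is not targeted. FLOX mice are their controls, there was no sham or ovary-intact group among the libraries, and ages were matched. The sources do not say whether the libraries of a genotype come from separate mice, and the submitters write that samples were run in duplicate, so the p-values below measure the spread between these libraries, which may be technical.

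Steroids can be made in the brain from cholesterol. The carrier Star and the outer membrane protein Tspo act at the entry of cholesterol into mitochondria, the side-chain cleavage enzyme Cyp11a1 converts it to pregnenolone, and further enzymes lead to progesterone, androgens and, through aromatase, to estradiol. Estradiol acts through the nuclear receptors Esr1 and Esr2, and Esrra is an orphan receptor of related sequence that binds no estrogen and drives genes of mitochondrial energy metabolism. In the hippocampus aromatase is found mainly in neurons and, after injury, in reactive astrocytes.

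Counts on genes ranged from 24333396 to 33076795 per library, so that 3 counts, the least that was taken as a detectable level, corresponded to between 0.0905 and 0.122 CPM (counts scaled to a library of 1000000 counts, with TMM factors from edgeR). Such limits and the counting intervals below cover counting error only. Markers of excitatory neurons summed to between 8325 and 8671 CPM per library, with all 8 of them counted in every library, and markers of infiltrating leukocytes summed to between 3.45 and 4.78 CPM. Camk2a, whose promoter drives the Cre, had between 4917 and 5170 CPM. Genotypes were compared over the 14527 genes that passed a filter on low counts, with the quasi-likelihood test of edgeR. Of these genes 0.0138% had an adjusted p under 0.05 (2 genes, none of the set) and 16.5% an unadjusted p under 0.05. The log2 fold change (FBN-ARO-KO+GCI over FLOX+GCI) fell with rising GC content (Spearman's rho -0.55 over 14004 genes, themselves no replicates). Between libraries of 1 genotype, rho was -0.48 for FBN-ARO-KO+GCI replicate 2 over replicate 1 and 0.0997 for FLOX+GCI replicate 2 over replicate 1. The values of the set are therefore also given with GC content and length corrected for. So corrected, 0 of the set had an unadjusted p under 0.05, against 11.4% of all genes (7.89% higher and 3.48% lower).

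Of the 9 genes, 7 passed the filter and 2, Cyp19a1 and Esr2, were too low to compare. In edgeR's quasi-likelihood test 0 of the 7 had an adjusted p under 0.05, beside 0.0138% of all tested genes, and 0 did by edgeR's likelihood ratio test (2.02% of all genes) or with the replicate number as a block (1.27%). DESeq2, which called 5.1% of the genes to which it gave an adjusted p, gave one to only 2 of the 7, Hsd17b4 and Esrra, and called neither. The smallest adjusted p was that of Tspo (0.289 in edgeR), the 1 gene whose unadjusted p was under 0.05, against the 16.5% of all tested genes. The libraries of the genotypes did not overlap for 4 of the 7 (57.1%), Tspo, Srd5a1, Hsd17b4 and Esrra, a share near the 51.8% of all genes tested.

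**Figure D1:**
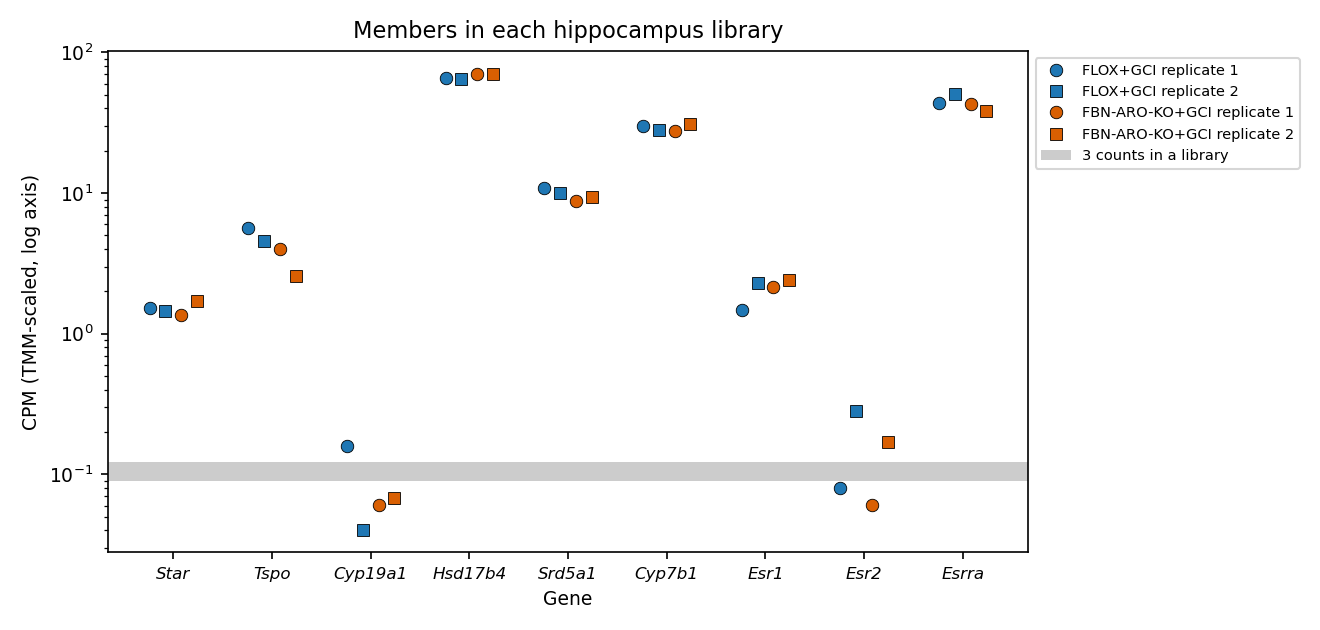
CPM of the 9 genes (y axis, log scale) in each library, with FLOX+GCI in blue and FBN-ARO-KO+GCI in orange, replicate 1 as circles and replicate 2 as squares. The grey band marks 3 counts. Cyp19a1 and Esr2 lie about the band, Tspo is highest in FLOX+GCI replicate 1 and lowest in FBN-ARO-KO+GCI replicate 2, and for Hsd17b4 the libraries of a genotype nearly coincide.

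Cyp19a1, the targeted gene, encodes aromatase, which turns androgens into estrogens. It lies on chromosome 9 of mm9 from 54013744 to 54115917 on the minus strand. FLOX+GCI replicate 1 held 4 counts and replicate 2 held 1, while each FBN-ARO-KO+GCI library held 2. The FBN-ARO-KO+GCI libraries fell between the FLOX+GCI libraries in CPM. With 5 counts summed over FLOX+GCI and 4 over FBN-ARO-KO+GCI, the exact binomial 95% interval of the ratio of genotypes ran from 0.126 to 2.96, and a loss or a gain within that range was not detectable at this depth. The sources used here do not name the exons between the LoxP sites, and a count summed over the gene would also include reads from exons that are kept. The labels of the libraries could thus not be checked by their targeted gene.

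Cyp19a1 is known to be transcribed from alternative starts that differ between tissues, and the counts per symbol add these together. The RefSeq table (GRCm38.p6) gives 3 starts, whose 120 bases upstream are shown because the values above cannot say which of them was in use. Capitals mark TATAAA, the TATA box, and AGGTCA, the core letters to which estrogen-related and other nuclear receptors bind, each searched on both strands, and overlapping matches run together. The positions of these sequences are of GRCm38.p6 and those of the genes are of mm9, so they cannot be set against each other.
Cyp19a1 start 1, chr9:54268165-54268284, minus strand: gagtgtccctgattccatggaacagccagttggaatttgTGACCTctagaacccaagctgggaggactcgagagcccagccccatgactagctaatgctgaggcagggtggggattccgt
Cyp19a1 start 2, chr9:54228915-54229034, minus strand: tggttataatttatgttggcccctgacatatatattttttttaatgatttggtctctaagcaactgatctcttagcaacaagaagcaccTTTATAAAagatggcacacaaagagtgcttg
Cyp19a1 start 3, chr9:54193744-54193863, minus strand: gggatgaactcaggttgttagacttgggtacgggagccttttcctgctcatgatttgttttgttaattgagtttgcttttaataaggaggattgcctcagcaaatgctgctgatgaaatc
The upstream 250 bases of start 1 held AGGTCA on the opposite strand, with its outer base 81 bases before the start, and those of start 2 held TATAAA from 29 to 24 bases before the start, overlapped by the same letters on the opposite strand. Start 3 held TATAAA on the opposite strand only, beyond the stretch shown. Over all 32851 promoter windows of the table, AGGTCA occurred in 14% and TATAAA in 12.4%.

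The estrogen receptors were scarce. Esr1, on chromosome 10 of mm9 from 5340927 to 5734948, encodes estrogen receptor α. It had 37 and 57 counts in the FLOX+GCI libraries against 71 and 71 in those of FBN-ARO-KO+GCI, which is 1.48 and 2.31 CPM against 2.14 and 2.42 CPM. FLOX+GCI replicate 1 was the lowest library and the other 3 lay close together, so the genotypes overlapped. The log2 fold change was 0.27 (95% interval -0.43 to 0.97, adjusted p = 0.660 in edgeR), which leaves room for anything between 0.741 and 1.96 times the FLOX+GCI level. Without FLOX+GCI replicate 1 it was -0.02, and without FLOX+GCI replicate 2 it was 0.62.

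Esr2, on chromosome 12 from 77221406 to 77278246, encodes estrogen receptor β. It had 2 and 7 counts in the FLOX+GCI libraries against 2 and 5 in those of FBN-ARO-KO+GCI, with more counts in replicate 2 of both genotypes. Its summed counts, 9 and 7, gave a ratio of 0.619 with an exact counting interval from 0.196 to 1.87.

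Esrra, on chromosome 19 from 6985467 to 6996303, was by far the most abundant of the 3 receptors. It had 1100 and 1255 counts in the FLOX+GCI libraries against 1421 and 1124 in those of FBN-ARO-KO+GCI. In CPM this was 43.9 and 50.9 against 42.9 and 38.4, so both FBN-ARO-KO+GCI libraries lay below both FLOX+GCI libraries, replicate 1 narrowly. The log2 fold change of Esrra was -0.22 (95% interval -0.47 to 0.03, unadjusted p = 0.0755, adjusted p = 0.342 in edgeR). With a library left out it ranged from -0.32 (without FLOX+GCI replicate 1) to -0.11 (without FLOX+GCI replicate 2). Its transcript has the highest GC content of the set, 61.8%, and the 343 tested genes within 1 percentage point of that had a median log2 fold change of -0.23. Corrected for GC and length, the value of Esrra was 0.06 (95% interval -0.18 to 0.29). At its 3′ end 73 exon bases are shared with Trmt112 on the opposite strand, and whether reads were counted by strand is not given in the sources used here.

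Tspo encodes the translocator protein of the outer mitochondrial membrane, known in brain for its rise in activated microglia and astrocytes. Of the 7 members that passed the filter it had the log2 fold change farthest from 0. It lies on chromosome 15 from 83394003 to 83404631. It had 141 and 112 counts in the FLOX+GCI libraries against 132 and 75 in those of FBN-ARO-KO+GCI, which is 5.63 and 4.54 CPM against 3.98 and 2.56 CPM. Both FBN-ARO-KO+GCI libraries lay below both FLOX+GCI libraries, with a gap between the genotypes smaller than the spread within either. The mean in FLOX+GCI was 5.08 ± 0.766 CPM (SD, n = 2), and that in FBN-ARO-KO+GCI was 3.27 ± 1.01 CPM (SD, n = 2). This gave a log2 fold change of -0.63 (95% interval -1.24 to -0.02, unadjusted p = 0.0444, adjusted p = 0.289 in edgeR), so it did not pass over all genes. In this bulk tissue, fewer cells of a type and less RNA per cell cannot be told apart.

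Several values moved beside Tspo. Its transcript has a GC content of 59.0%, and the 897 tested genes within 1 percentage point centered on a log2 fold change of -0.20 (median), with a lower quartile of -0.32. Corrected for GC and length, Tspo had a log2 fold change of -0.36 (95% interval -0.90 to 0.19, unadjusted p = 0.164, adjusted p = 0.589 in edgeR). Left out in turn, FBN-ARO-KO+GCI replicate 2 moved the value to -0.35 and FBN-ARO-KO+GCI replicate 1 to -0.99.

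Markers of the cells in which Tspo is known to be found, and of choroid plexus, were summed per library. The 10 microglia markers, all counted in every library, summed to 544 and 535 CPM in the FLOX+GCI libraries against 519 and 561 CPM in those of FBN-ARO-KO+GCI, with no order by genotype, and 0 of the 10 had an unadjusted p under 0.05. The 8 astrocyte markers were likewise all counted, and summed to 5926 and 6036 CPM against 6170 and 6764 CPM, with Slc1a2 the most abundant of them. The sum does not show the spread of Gfap, whose protein the study used as a measure of astrocyte reactivity. Gfap had 396 and 900 CPM in FLOX+GCI against 502 and 560 CPM in FBN-ARO-KO+GCI. The genotypes overlapped, and the highest library was FLOX+GCI replicate 2, unlike Tspo. Of these 8, 2 had an unadjusted p under 0.05, in opposite directions, Slc1a2 (log2 fold change 0.21) and Aldh1l1 (-0.30), both named after their values were seen. The 6 endothelial markers, none at 0, summed to 245 and 182 CPM in the FLOX+GCI libraries against 210 and 153 CPM in those of FBN-ARO-KO+GCI. The 5 meningeal markers, none at 0 either, summed to 169 and 105 CPM against 107 and 86.7 CPM. The 6 choroid plexus markers summed to 64.3 and 49.8 CPM against 42.9 and 48.3 CPM, lowest in FBN-ARO-KO+GCI replicate 1. Of the 4 of them that were tested, 2 had a log2 fold change above 0 and 2 below. These vascular and meningeal sums were, like Tspo, highest in FLOX+GCI replicate 1 and lowest in FBN-ARO-KO+GCI replicate 2. The libraries between were ordered otherwise. FLOX+GCI replicate 2 was below FBN-ARO-KO+GCI replicate 1 in the endothelial (182 against 210 CPM) and meningeal sums (105 against 107 CPM). For Tspo it was above (4.54 against 3.98 CPM). All 6 endothelial and all 5 meningeal markers had a log2 fold change below 0, as did 7458 of the 14527 tested genes. Of the 6, 1 had an unadjusted p under 0.05 in edgeR, and of the 5, 0 did. Corrected for GC and length, the endothelial marker Ly6c1 was at 0.02 and the others stayed below 0. The part of these markers in the values of Tspo was not tested.

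Star encodes the steroidogenic acute regulatory protein, which carries cholesterol to the inner mitochondrial membrane. It lies on chromosome 8 from 26918946 to 26925782. It had 38 and 36 counts in the FLOX+GCI libraries against 45 and 50 in those of FBN-ARO-KO+GCI, which is 1.52 and 1.46 CPM against 1.36 and 1.71 CPM. The FLOX+GCI libraries fell between the FBN-ARO-KO+GCI libraries. The log2 fold change was 0.04 with a wide 95% interval, from -0.64 to 0.72 (adjusted p = 0.956 in edgeR).

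Among the enzymes downstream, Hsd17b4 was the most abundant in the set and had the closest replicates. It encodes a peroxisomal enzyme that oxidizes estradiol to estrone and takes part in the β-oxidation of fatty acids. It had 1651 and 1593 counts in the FLOX+GCI libraries against 2339 and 2073 in those of FBN-ARO-KO+GCI, which is 65.9 and 64.6 CPM against 70.5 and 70.7 CPM. Both FBN-ARO-KO+GCI libraries were higher than both FLOX+GCI libraries. The difference was small, a log2 fold change of 0.11 (95% interval -0.06 to 0.29, adjusted p = 0.447 in edgeR), and 0.12 once corrected for GC and length. A rise above 1.22 times or a fall below 0.960 times the FLOX+GCI level lay outside the interval.

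Srd5a1, the steroid reductase that makes dihydrotestosterone from testosterone and the precursor of allopregnanolone from progesterone, lies on chromosome 13 from 69712327 to 69750320. It had 274 and 246 counts in the FLOX+GCI libraries against 292 and 274 in those of FBN-ARO-KO+GCI. In CPM this was 10.9 and 9.98 against 8.81 and 9.35, lower in both FBN-ARO-KO+GCI libraries. The log2 fold change of Srd5a1 was -0.20 (95% interval -0.53 to 0.12, adjusted p = 0.469 in edgeR), and -0.16 after the correction. The annotation has 476 of its exon bases also in Gm17108 on the same strand. Gm17108 is not among the symbols counted, so reads from it may be counted for Srd5a1, to an extent not known.

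Cyp7b1 hydroxylates oxysterols and steroids such as dehydroepiandrosterone, and lies on chromosome 3 from 17971950 to 18143338. Its counts were 751 and 691 in FLOX+GCI against 922 and 911 in the FBN-ARO-KO+GCI libraries, which is 30.0 and 28.0 CPM against 27.8 and 31.1 CPM. The genotypes overlapped, with FBN-ARO-KO+GCI holding both the lowest and the highest library. Cyp7b1 had a log2 fold change of 0.02 (95% interval -0.22 to 0.27, adjusted p = 0.928 in edgeR) and -0.09 after the correction, so its direction was not settled.

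**Figure D2:**
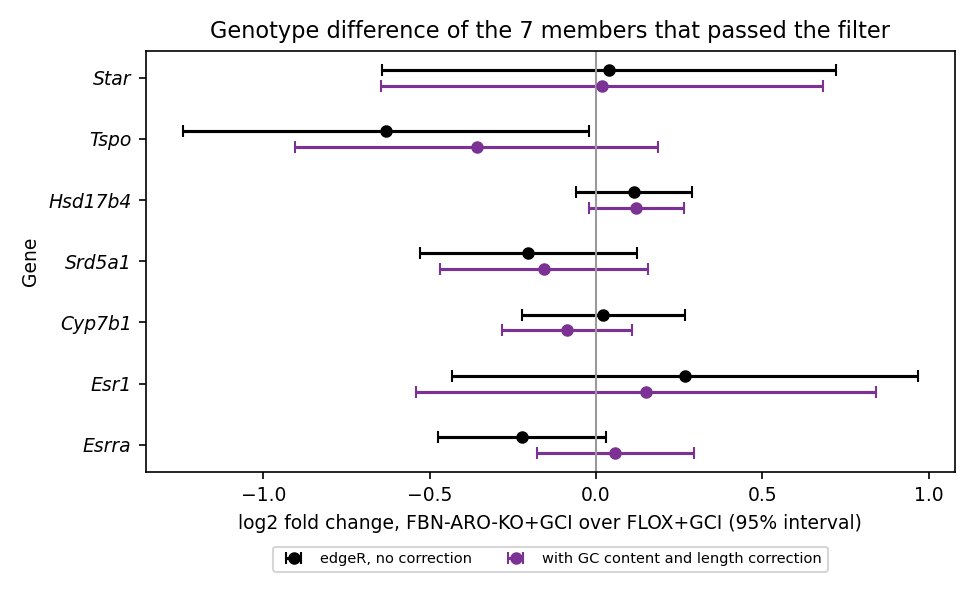
Log2 fold change of FBN-ARO-KO+GCI over FLOX+GCI (x axis) for the 7 genes that passed the filter, with 95% intervals, from edgeR without (black) and with (purple) the correction for GC content and length. Without the correction only the interval of Tspo, from -1.24 to -0.02, leaves out 0, and with it none does; Esrra and Cyp7b1 change side.

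Promoter windows were in the RefSeq table for 5 of the 9 genes, Cyp19a1, Esr1, Esr2, Srd5a1 and Esrra, with 8 windows in all. Cyp7b1, Hsd17b4, Star and Tspo had no entry. Srd5a1, a member whose libraries did not overlap between genotypes, is shown by the 120 bases before its start (GRCm38.p6), with GGGCGG, the GC box, in capitals.
Srd5a1, chr13:69611464-69611583, minus strand: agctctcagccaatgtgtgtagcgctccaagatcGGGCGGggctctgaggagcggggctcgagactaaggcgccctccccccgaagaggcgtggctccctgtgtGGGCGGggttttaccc
In the whole 250 bases, Srd5a1 held GGGCGG 3 times and Esrra held it 2 times on the opposite strand, where 32.7% of all windows held it on either strand. None of the 8 windows held the full palindromic estrogen response element, found in 0.0639% of all windows, or the ERR element TCAAGGTCA, found in 0.387%. These matches describe letters in 250 bases and no binding was measured.

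The members spanned much of the range of GC content over which the fold change of all genes moved. The GC content of those tested ran from 42.5% for Cyp7b1 to 61.8% for Esrra, and genes near those values had median log2 fold changes of 0.17 and -0.23. Star (0.04) and Hsd17b4 (0.11) lay within the middle quartiles of genes of like GC content. Esrra (-0.22) did too, while Tspo (-0.63) stood below the lower quartile (-0.32). Esr1 (0.27) stood above the upper quartile of its 1332 neighbors in GC content (0.19). Srd5a1 (-0.20) stood below the lower quartile of its 1451 neighbors (-0.15), and Cyp7b1 (0.02) below that of its 943 neighbors (0.05).

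**Figure D3:**
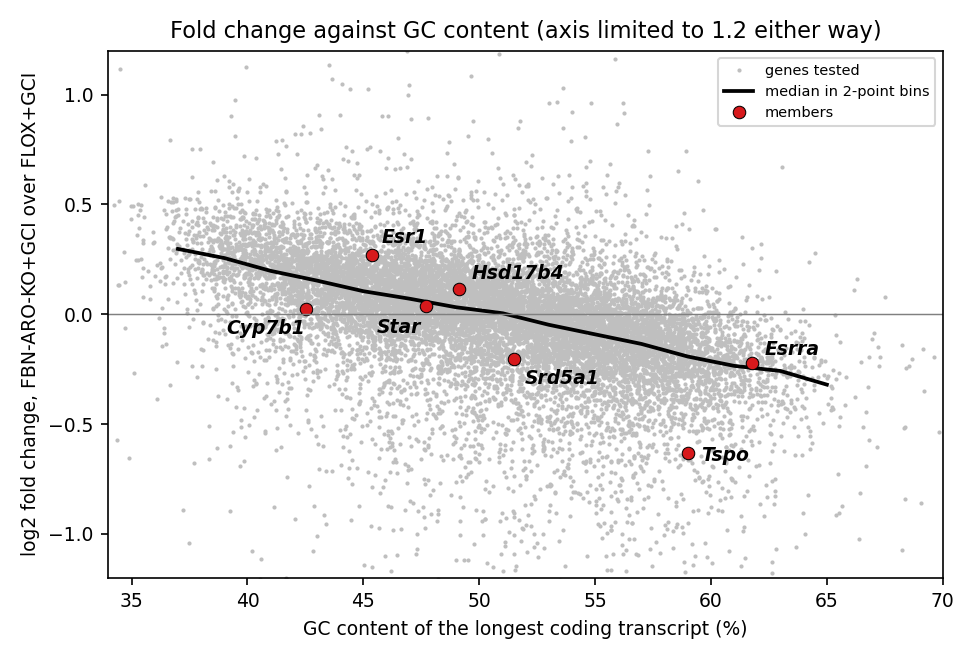
Log2 fold change of FBN-ARO-KO+GCI over FLOX+GCI (y axis, limited to 1.2 either way) against the GC content of the longest coding transcript (x axis, percent). Grey points are tested genes, the black line is their median in bins, and red points are the members. The line falls from left to right; Esrra at 61.8% GC lies on it, and Tspo at 59.0% GC lies below it.

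Levels of different genes were compared per length, as reads per kilobase of the longest coding transcript on the scale of CPM (RPKM). The order of the set by mean RPKM was Hsd17b4 (25.3), Esrra (19.6), Cyp7b1 (13.5), Tspo (4.89), Srd5a1 (3.69), Star (0.542), Esr1 (0.329), Esr2 (0.0442) and Cyp19a1 (0.0346). The ranges over the 4 libraries overlapped for 2 neighboring pairs, Tspo with Srd5a1 and Esr2 with Cyp19a1, and for no other neighbors. Among the 16461 genes with a length and at least 1 count, Hsd17b4 stood above 81.6% and Cyp19a1 above 8.40%.

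The other genes of the pathway came from lists compiled by function. At the entry of cholesterol, Vdac1, the outer membrane channel that partners with Tspo, had between 227 and 241 RPKM, and Dbi, whose peptide binds Tspo, between 214 and 246 RPKM. Stard3, the late endosomal relative of Star, had between 16.3 and 18.2 RPKM. All 3 were well above Star and Tspo in every library. Of the 10 genes in this list 9 were tested and 0 had an adjusted p under 0.05. The median log2 fold change was 0.02 against -0.01 for all tested genes. Dbi was the 1 gene with an unadjusted p under 0.05 (11.1% of the list, against 16.5% of all tested genes), at 127 and 132 CPM in the FLOX+GCI libraries against 146 and 144 CPM in those of FBN-ARO-KO+GCI, with a log2 fold change of 0.16 (adjusted p = 0.302 in edgeR). With GC content and length corrected for, 2 genes were under 0.05 before adjustment, Dbi (0.26) and Stard3 (0.25).

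Enzymes on the way from cholesterol to androgens were low or at 0. Cyp11a1 had 40 and 42 counts in the FLOX+GCI libraries against 57 and 40 in those of FBN-ARO-KO+GCI, or between 0.769 and 0.968 RPKM. Cyp17a1, which opens the way to androgens, had 0 and 0 counts in the FLOX+GCI libraries against 1 and 1 in those of FBN-ARO-KO+GCI. Hsd3b1, Hsd3b2 and Hsd17b3 had 0 counts in all 4 libraries, which allows up to 0.0905 to 0.122 CPM per library. Hsd17b1, which makes estradiol from estrone, had between 5 and 8 counts and was not tested. In contrast, Hsd17b10 (33.4 to 37.2 RPKM) and Hsd17b12 (44.0 to 46.4 RPKM), enzymes that also act on fatty acids, were at the level of Hsd17b4 or above it. Hsd17b7, another gene of this family and named after its values were seen, had between 4.76 and 5.82 RPKM. The counts of Hsd17b1 are those of 1 gene and do not give the level of the step from estrone to estradiol. Sts was not analysed here.

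For the reductase step, Srd5a2 had 1 count in each library where Srd5a1 had between 246 and 292. Akr1c14, which completes allopregnanolone, had 101 and 38 counts in the FLOX+GCI libraries against 62 and 53 in those of FBN-ARO-KO+GCI, with FLOX+GCI replicate 1 alone high. Among oxysterol enzymes, Cyp46a1, the neuronal cholesterol hydroxylase, had between 66.6 and 77.2 RPKM, above Cyp7b1 and far above Cyp27a1 (1.33 to 2.09 RPKM). Cyp46a1 had 164 and 157 CPM in the FLOX+GCI libraries against 141 and 141 CPM in those of FBN-ARO-KO+GCI, which gave a log2 fold change of -0.18 (unadjusted p = 0.0327, adjusted p = 0.271 in edgeR) and 0.04 once corrected for GC and length. Hsd11b1, which regenerates active glucocorticoid, had between 20.9 and 25.7 RPKM.

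Of the 36 genes listed for steroid synthesis and metabolism, 35 were in the tables, 9 of these had no count at all and 20 were tested. The number with an adjusted p under 0.05 was 0, while 0 were higher and 2 lower at an unadjusted p under 0.05, against 8.72% higher and 7.82% lower of all tested genes. The median log2 fold change of the list was -0.10, and -0.02 after the correction, where the median of all genes was 0.03 and 1 gene of the list was higher before adjustment (Hsd17b8, named after its values were seen). The smallest unadjusted p was that of Sult2b1, a sulfotransferase of cholesterol and other hydroxysteroids. It had 278 and 283 counts in the FLOX+GCI libraries against 261 and 268 in those of FBN-ARO-KO+GCI, or 11.1 and 11.5 CPM against 7.87 and 9.15 CPM (log2 fold change -0.41, adjusted p = 0.255 in edgeR, -0.22 after the correction).

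**Figure D4:**
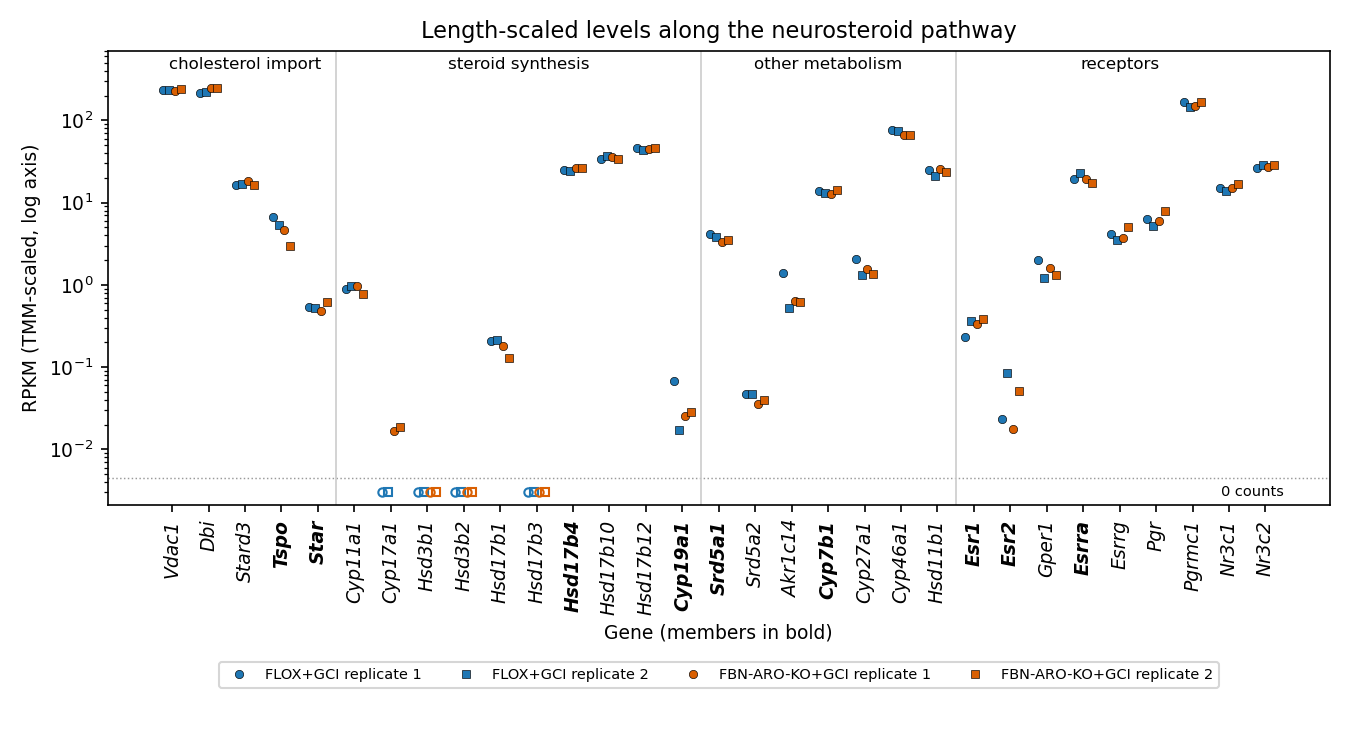
RPKM (y axis, log scale) of named genes from cholesterol import to receptors in each library, with members of the set in bold on the x axis and colors and symbols for genotype and replicate. Open symbols along the bottom stand for 0 counts. Hsd3b1, Hsd3b2 and Hsd17b3 are at 0 in all libraries, while Vdac1, Dbi and Pgrmc1 are the highest genes plotted.

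The other steroid receptors named here were more abundant than Esr1 and Esr2. The receptors for corticosteroids were clearly expressed, with between 26.3 and 28.9 RPKM for the mineralocorticoid receptor Nr3c2 and between 13.8 and 16.6 RPKM for the glucocorticoid receptor Nr3c1. Pgr, the progesterone receptor and a classic estrogen target, had between 5.26 and 7.83 RPKM. Gper1, the membrane estrogen receptor, listed under its older symbol Gpr30, had between 1.21 and 2.01 RPKM, above Esr1 in every library. Esrrg, a relative of Esrra, had between 3.56 and 4.98 RPKM, and Pgrmc1, a membrane component linked to progesterone, between 143 and 168 RPKM. Pgr had 19.2 and 16.1 CPM in the FLOX+GCI libraries against 18.2 and 24.0 CPM in those of FBN-ARO-KO+GCI, with overlap. None of these 6 genes had an unadjusted p under 0.05, with log2 fold changes between -0.13 for Gper1 and 0.26 for Pgr.

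All 16 genes of the receptor list were tested, and 0 passed after adjustment. Before adjustment, 1 was higher (6.25% of the list, against 8.72% of all tested genes) and 0 were lower. After the correction 2 were higher, Paqr8 and, named after its values were seen, Paqr9. The median log2 fold change was 0.09, and 0.02 after the correction. The gene past 0.05 was Paqr8, a membrane progestin receptor, with 5232 and 5008 counts in the FLOX+GCI libraries against 8376 and 7922 in those of FBN-ARO-KO+GCI, or 209 and 203 CPM against 253 and 270 CPM. Both FBN-ARO-KO+GCI libraries exceeded both FLOX+GCI libraries by more than the spread within either genotype. Paqr8 had a log2 fold change of 0.34 (95% interval 0.18 to 0.51, unadjusted p = 0.00170, adjusted p = 0.238 in edgeR's main test) and 0.27 after the correction (adjusted p = 0.333). The call depended on the test, since Paqr8 passed with DESeq2 (adjusted p = 0.00827), where 5.1% of genes did, and with edgeR's likelihood ratio test (adjusted p = 0.0140), where 2.02% did.

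Of the 16 coregulators of estrogen receptors, all were tested, 0 passed an adjusted p of 0.05, and 0 were higher and 3 lower at an unadjusted p under 0.05. These were 18.8% of the list, Phb2 among them, against 16.5% of all tested genes, and after the correction 0 were under 0.05. Their median log2 fold change was 0.00. Ncoa1, a coactivator, had a log2 fold change of 0.12, and Ppargc1a, the coactivator of Esrra, 0.07. Phb2, a repressor of estrogen receptor activity that is also a mitochondrial prohibitin, had the smallest p, with 72.9 and 74.2 CPM in the FLOX+GCI libraries against 65.5 and 60.1 CPM in those of FBN-ARO-KO+GCI (log2 fold change -0.23, adjusted p = 0.255 in edgeR, -0.01 after the correction).

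Of 15 genes known as estrogen targets in other tissues, 12 were tested, and 0 passed after adjustment. Before adjustment, 1 was higher and 3 were lower (33.3% of the list, against 16.5% of all tested genes). They were Cav1 and, named after their values were seen, Rara and Igfbp4, which were lower, and Xbp1, which was higher. The median log2 fold change was -0.05. After the correction 1 was higher (Xbp1), 1 lower (Cav1), and the median was 0.01. The smallest p was that of Cav1, caveolin of membrane pits and abundant in endothelium, with 558 and 517 counts in the FLOX+GCI libraries against 492 and 467 in those of FBN-ARO-KO+GCI, or 22.3 and 21.0 CPM against 14.8 and 15.9 CPM. The gap between genotypes exceeded the spread within either, and the log2 fold change was -0.49 (95% interval -0.75 to -0.23, adjusted p = 0.238 in edgeR's main test and 0.0431 in its likelihood ratio test) and -0.61 after the correction. The sums of the endothelial markers given above, lower in replicate 2 of both genotypes, did not follow the order of Cav1 over the libraries. All 6 markers had a log2 fold change below 0 without the correction (median -0.24), and Ly6c1 was at 0.02 with it. The part of these markers in the values of Cav1 was not tested. Ctsd, a lysosomal protease, had a log2 fold change of -0.06, and Greb1, among the most estrogen-responsive genes of other tissues, had 16 and 8 counts in the FLOX+GCI libraries against 7 and 14 in those of FBN-ARO-KO+GCI, with overlap.

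Of 15 genes listed as targets of Esrra, Esrra itself among them, 14 were tested, 0 had an adjusted p under 0.05, and 0 were higher and 1 lower at an unadjusted p under 0.05 (7.14% of the list, against 7.82% lower of all tested genes), with 0 after the correction. The median log2 fold change was -0.01, as was that of all tested genes at this rounding. The 1 gene was Sdhb, a subunit of succinate dehydrogenase, with 146 and 154 CPM in the FLOX+GCI libraries against 132 and 128 CPM in those of FBN-ARO-KO+GCI (log2 fold change -0.21, adjusted p = 0.251 in edgeR, -0.03 after the correction). Pdk4, a kinase that restrains pyruvate oxidation, had 10.4 and 11.2 CPM in the FLOX+GCI libraries against 11.6 and 20.0 CPM in those of FBN-ARO-KO+GCI, with replicate 2 of FBN-ARO-KO+GCI far above the rest (log2 fold change 0.55, unadjusted p = 0.0576). Idh3a, of the citric acid cycle, had a log2 fold change of 0.11.

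**Figure D5:**
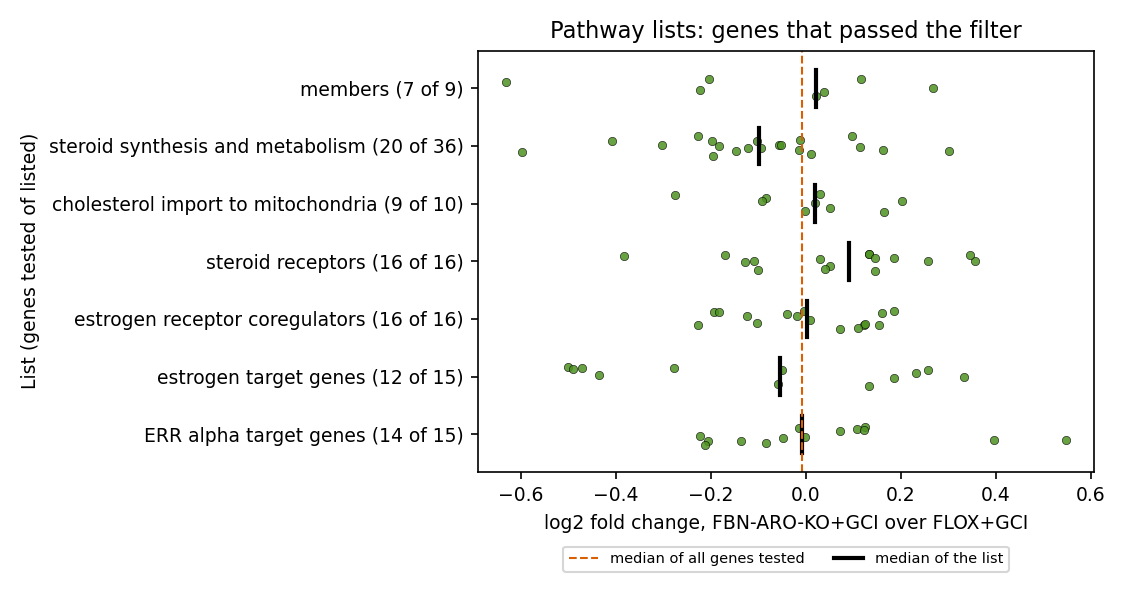
Log2 fold change of FBN-ARO-KO+GCI over FLOX+GCI (x axis) for each tested gene of the set and of the 6 pathway lists (rows, scattered vertically for visibility), with the median of the list as a black bar and that of all tested genes as a dashed line. List medians lie between -0.10 and 0.09, and Tspo at -0.63 is the lowest point.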

How the data were processed

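Hippocampal RNA of the 4 libraries was made into Illumina TruSeq libraries and read as 50 bp single ends. The authors aligned the reads to mm9 with TopHat2 2.0.8b and deposited, for each symbol, raw HTSeq counts. The version of HTSeq, its strand setting and its annotation are not given in the sources used here. The 5 rows that name no gene were left out, and between 54.5% and 56.6% of the tabulated reads lay on genes. Groups and replicate numbers came from the sample titles.

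The genotype test was edgeR 4.0.16 (R 4.3.3) in quasi-likelihood form on the whole count table, with TMM scaling, filterByExpr at a minimum count of 10 and Benjamini-Hochberg adjustment over all tested genes. Standard errors were taken as the log2 fold change over the root of F, and intervals are 95%. An exact permutation test of 2 against 2 libraries cannot give a p below 0.333. The study used DESeq, in whose place DESeq2 1.42.0 was run as an alternative. Gene positions, lengths and GC content are from GENCODE M1 (NCBIM37, the mm9 build). Older symbols were matched through RefSeq. The correction for GC content and length fitted natural splines (5 degrees of freedom each) to each library's log2 CPM (prior count 2) and entered edgeR as an offset. The tests and the correction were also run on simulated counts, whose outcome is not given here, and no statement above rests on it. Alternatives were other size factors, library totals alone, other filters on low counts, a block for the replicate number, DESeq2, the likelihood ratio form of edgeR, the correction, and each library left out in turn. No library repeated another (0 identical pairs).

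The members, the lists and the rule for named genes (all members, a choice of pathway genes by role, Camk2a and the gene of smallest p in each list) were chosen with earlier results of these data known. Some listed genes are not reported here by name.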

Additional observations from a re-analysis of the deposited data

How the results depend on the processing

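None of the 7 tested members had an adjusted p under 0.05 in any fit run that gave one, and Cyp19a1 and Esr2, below the main filter on low counts, had at most 7 counts in a library. For Tspo the adjusted p ranged from 0.151 to 0.872. DESeq2 gave no adjusted p for Esr1, Srd5a1, Cyp7b1, Star and Tspo. Against 2 of all tested genes in the main test, 5 were called with every gene of at least 1 count, 292 by DESeq2 (215 higher, 77 lower), 294 by edgeR's likelihood ratio test (139 higher, 155 lower), 184 with the replicate number as a block (42 higher, 142 lower), 1 with the block and the GC correction, and from 0 to 193 with a library left out (193 without FLOX+GCI replicate 1, 127 without FLOX+GCI replicate 2, 0 without either of the others). The samples share only a number, the deviations of same-numbered libraries correlated at 0.129, and the block called 0 members. Of the receptors DESeq2 and the likelihood ratio test called 1, Paqr8, against 0 in the main test. Of the estrogen targets, among the fits that kept every library, only the likelihood ratio test called 1, Cav1, against 0 in the main test. The causes were not tested.

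Of 465 log2 fold changes of 36 named genes under alternatives, 411 kept direction and, where an adjusted p was given, side of the threshold. A further 3 kept direction and passed the threshold, and 51 reversed. With library totals as the only scaling these were Cyp7b1 (-0.015), Hsd17b12 (-0.026), Vdac1 (-0.017) and Nr3c2 (-0.0075). With the GC and length correction, without and with the block, they were Cyp7b1 (-0.087, -0.087), Esrra (0.058, 0.064), Cyp11a1 (0.0072, 0.0031), Hsd17b10 (0.094, 0.096), Hsd17b12 (-0.036, -0.036), Cyp46a1 (0.041, 0.039), Gper1 (0.027, 0.051), Nr3c1 (-0.049, -0.048), Nr3c2 (-0.045, -0.044), Ppargc1a (-0.12, -0.12) and Ctsd (0.10, 0.10), and Pgrmc1 (-0.00014) without the block. With a library left out the value ranged from -0.019 to 0.62 for Esr1, -0.059 to 0.097 for Cyp7b1, -0.13 to 0.19 for Star, -0.28 to 0.061 for Cyp11a1, -0.087 to 0.061 for Hsd17b10, -0.030 to 0.050 for Hsd17b12, -1.13 to 0.26 for Akr1c14, -0.52 to 0.14 for Cyp27a1, -0.031 to 0.24 for Hsd11b1, -0.025 to 0.061 for Vdac1, -0.035 to 0.13 for Stard3, -0.45 to 0.28 for Gper1, -0.032 to 0.37 for Esrrg, -0.025 to 0.084 for Nr3c2, -0.052 to 0.16 for Pgrmc1, -0.022 to 0.16 for Ppargc1a, -1.17 to 0.065 for Greb1 and -0.13 to 0.013 for Ctsd.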
